A study of Mus musculus with 12 samples.

Results

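Apoe, genes of the liver X receptor (LXR) pathway for cholesterol efflux and the lipid receptor gene Trem2 were followed in bone marrow-derived macrophages (BMDMs) of TNF-9 knockout (KO) and wild-type (WT) mice. The 10 genes are Apoe, Apoc2, Abca1, Abcg1, Nr1h2, Nr1h3, Srebf1, Mylip, Lpcat3 and Trem2, out of 48526 genes in the count table. Apoe was chosen by its difference between KO and WT in these same libraries, and the others were picked around it by their known role, with results of these data already seen. Differences between KO and WT are therefore given for these genes as a description, without p-values. Their responses to lipopolysaccharide (LPS), which did not choose them, were tested. All 10 were found in the table, and 9 passed the filter on low counts. Apoc2 did not pass. The lists of related genes used below were also made with earlier results of these data known. Differences of list genes between KO and WT are thus a description too. An adjusted p beside them only marks the threshold used for all genes.

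The 12 libraries of total RNA fall into 4 groups of 3, which are WT and KO cells, each without stimulation (UT) or with LPS for 6 hr. The labels name the treatment of the UT cells PBS. KO mice were homozygous for a deletion of TNF-9, named HSS9 in the labels, an enhancer upstream of Tnf, the gene of the inflammatory cytokine TNFα. The labels call the WT mice littermates, whereas the methods describe purchased C57BL/6 mice and KO mice bred as homozygous pairs, so genotype and breeding colony cannot be told apart. All mice were young adult males, and all cells were grown for 6 d with conditioned medium of L929, a mouse fibroblast line, as the source of growth factor. Whether libraries of a group came from separate mice is not stated, so the spread between them may be technical.

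Macrophages take up lipoproteins and dying cells and must dispose of the cholesterol. LXRα and LXRβ are nuclear receptors that sense oxysterols, pair with retinoid X receptors on direct-repeat elements in DNA, and switch on genes for the export of cholesterol. The transporters ABCA1 and ABCG1 pass cholesterol to acceptor particles outside the cell, and apolipoprotein E, which macrophages secrete, is one of those acceptors. TREM2 is a surface receptor that binds lipids and apolipoproteins and signals through the adaptor TYROBP.

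The sequence before the transcription start is shown for Apoe, whose level differed most between the genotypes, and for Abca1 and Srebf1, which hold an LXR element. The start regions come from RefSeq (GRCm38.p6), with 250 bases before and 50 bases after each start, and 9 of the 10 genes had at least 1 region, 14 regions in all. Abcg1 is not in the table used. The consensus of direct repeats, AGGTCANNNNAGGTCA on either strand, was in 5 of 32851 start regions of all genes (0.0152%) and in none of the 14. The variant GGTTACTNNCGGTCA on either strand, whose letters were chosen with the elements of Abca1 and Srebf1 in mind, was in 3 of the 32851 regions (0.00913%), those of Abca1, Srebf1 and Fasn. Below, the 250 bases before the start are printed along the sense strand, with the match in capitals, which is the reverse complement of the letters searched. The Abca1 bases lie at chr4:53159896-53160145 (minus strand), those of Srebf1 at chr11:60210472-60210721 (minus strand, the start nearest to the 3′ end of 3) and those of Apoe at chr7:19699189-19699438 (minus strand, the outermost of 3 starts).
Abca1: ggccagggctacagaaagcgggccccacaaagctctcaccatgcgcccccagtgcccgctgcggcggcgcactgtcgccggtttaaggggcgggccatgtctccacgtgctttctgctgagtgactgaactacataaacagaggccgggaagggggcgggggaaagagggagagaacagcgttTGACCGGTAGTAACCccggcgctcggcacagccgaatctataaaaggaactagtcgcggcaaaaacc
Srebf1: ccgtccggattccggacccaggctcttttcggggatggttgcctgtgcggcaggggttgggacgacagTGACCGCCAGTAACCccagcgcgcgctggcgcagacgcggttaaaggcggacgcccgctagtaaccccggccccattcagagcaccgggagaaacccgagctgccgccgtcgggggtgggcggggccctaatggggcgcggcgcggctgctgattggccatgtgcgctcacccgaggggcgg
Apoe: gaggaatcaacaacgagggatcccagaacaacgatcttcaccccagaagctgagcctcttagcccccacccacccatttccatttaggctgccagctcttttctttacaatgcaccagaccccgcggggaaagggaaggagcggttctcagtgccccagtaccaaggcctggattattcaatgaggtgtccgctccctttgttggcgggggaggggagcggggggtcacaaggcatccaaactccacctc
The match lies 67 to 53 bases before the start in Abca1 and 182 to 168 bases before it in Srebf1. In Fasn, which encodes fatty acid synthase, the match reads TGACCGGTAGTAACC as in Abca1 and lies 225 to 211 bases before the start. The Apoe region holds neither set of letters, which says only that these letters are not in this window. A match of letters is not a measured binding site.

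Levels are given as CPM, counts scaled to a common library size with TMM factors, and as CPM per kilobase of exon where genes are compared with each other. A difference was taken as significant at an adjusted p below 0.05 in the quasi-likelihood test of edgeR over the 15523 genes that passed the filter, and as a call where the absolute log2 fold change was also above 1, the criteria of the study. Library totals ranged from 26154533 to 36423921 counts. Tnf was lower in KO than in WT cells, with 422 to 450 against 826 to 938 CPM with LPS and 9.10 to 10.5 against 14.8 to 16.2 CPM without LPS. Small structured RNAs are genes annotated as snRNA, snoRNA, rRNA, miRNA and the like, without mitochondrial rRNA and tRNA. They took 6.67 to 8.01% of counts in KO UT libraries and 3.04 to 3.30% in WT UT libraries. The share was 3.26 to 3.45% in KO LPS libraries, and 4.07, 5.40 and 6.93% in the WT LPS libraries. All 6 macrophage markers were expressed, with a summed level of 5412 to 5506 CPM in WT UT, 5728 to 5797 in KO UT, 6391 to 6806 in WT LPS and 7728 to 7919 in KO LPS libraries. The 8 stromal markers summed to 9.92 to 10.2, 13.4 to 14.3, 26.1 to 28.6 and 40.4 to 42.0 CPM in the same order. Of the 7 tested, 6 were higher in KO LPS than in WT LPS cells, beside 7.78% of all genes tested. Without LPS 2 were higher in KO cells, beside 14.1%. Pdgfrb, named after its values were seen, was at 0.787 to 1.059 CPM in WT UT and 19.8 to 19.9 CPM in WT LPS libraries and makes up the LPS difference of the sum in WT cells, where the median log2 fold change of the 7 was -0.37, with 1 higher and 2 lower. The 8 neutrophil markers summed to 20.45 to 22.01, 42.6 to 48.1, 50.5 to 79.6 and 67.3 to 76.8 CPM. Of 6 tested, 4 were higher in KO UT than in WT UT cells, beside 14.1% of all genes tested. With LPS 1 was higher in KO cells, beside 7.78%. In response to LPS, 2 rose and 3 fell in WT cells, and 2 rose and 4 fell in KO cells. The median log2 fold changes were -0.08 and -1.55. Ly6g, which defines neutrophils, was at 0 in all groups, so the sums come from the other markers of the list. Markers of T cells and dendritic cells summed to at most 8.23 and 3.04 CPM in any library. Cd3g was at 0 in WT UT, WT LPS and KO LPS libraries. Cd3d, Cd3e and Trac were also at 0 in WT LPS libraries. There the T cell sum was 4.77 to 6.24 CPM, all on Cd247, against 0.234 to 0.398 CPM in WT UT libraries. Cd247, the only T cell marker tested, rose with LPS by 4.34 in WT and 5.15 in KO cells on the log2 scale. In bulk RNA, fewer cells of a type and less RNA per cell cannot be told apart.

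Apoe, which encodes the secreted apolipoprotein E, was by far the most unequal of the genes between KO and WT cells. The gene lies at chr7:19696109-19699188 (GRCm38, minus strand). Its level was 1400, 1342 and 1415 CPM in the WT UT libraries and 4403, 3784 and 3778 CPM in the KO UT libraries. In the LPS libraries it was 1081, 1307 and 1236 CPM in WT and 2851, 3039 and 2606 CPM in KO libraries. Every KO library lay above every WT library of either treatment, and the lowest KO value exceeded the highest WT value by more than the range within any group. The order of the groups was KO UT, KO LPS, WT UT and WT LPS under TMM and under the 3 other scalings tried. Under TMM no libraries of neighbouring groups in this order overlapped. Per kilobase of exon, Apoe was the 24th most abundant of 21760 protein-coding genes in WT UT cells and the 11th in KO UT cells, and it ranked 86 in WT LPS and 29 in KO LPS cells. It took 0.174 to 0.183% of all counts in WT UT and 0.438 to 0.508% in KO UT libraries.

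The log2 difference of Apoe between KO and WT was 1.53 without LPS (SE 0.07, 95% interval 1.38 to 1.67, a ratio of 2.88). With LPS it was 1.23 (SE 0.07, 95% interval 1.08 to 1.38, a ratio of 2.34). Between libraries of the same replicate number it ranged from 1.42 to 1.65 without LPS and from 1.08 to 1.40 with LPS. These differences chose the gene and stand here without a test. Small structured RNAs moved with the genotype in opposite directions in the 2 treatments. With their share as a covariate the log2 difference was 1.18 without LPS and 1.40 with LPS, so Apoe remained higher in KO cells in both. The stromal, neutrophil and macrophage marker sums above also moved with genotype, and their part in the Apoe difference was not tested.

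LPS lowered Apoe in both genotypes, by little in WT cells. Relative to UT, the log2 fold change was -0.20 in WT (SE 0.07, adjusted p = 0.0148) and -0.49 in KO cells (SE 0.07, adjusted p = 1.73e-06). The WT response no longer passed without WT LPS replicate 1, at -0.12 (adjusted p = 0.0583), and with scaling on protein-coding genes, at -0.12 (adjusted p = 0.132). The KO response no longer passed with the small RNA share as a covariate, at -0.16 (adjusted p = 0.267). The response of KO cells was lower than that of WT cells by 0.30 on the log2 scale (95% interval -0.50 to -0.09), a value that the genotype difference helped to form and that turned to 0.22 with the same covariate.

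**Figure D1:**
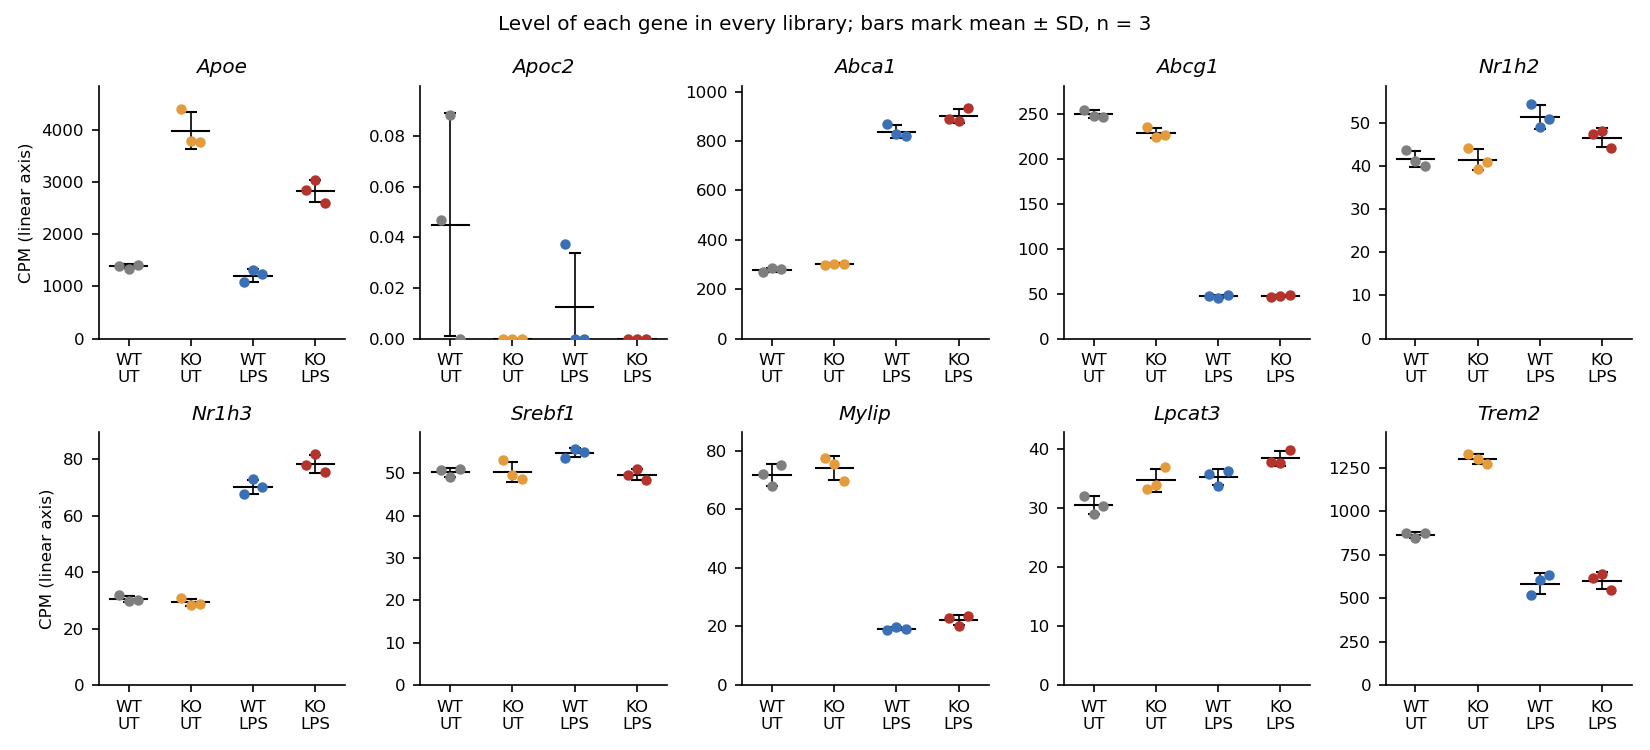
Level of each of the 10 genes in every library, in CPM on linear axes that start at 0. Points are libraries, the wide bar is the group mean and the whiskers are 1 SD (n = 3). Apoe is higher in all KO libraries, Abca1 and Nr1h3 are higher and Abcg1 and Mylip lower in all LPS libraries, and Apoc2 is near 0 throughout.

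As a description and not as a test of the 9 genes, the values of 1 of them, Apoe, lay past the threshold used for all genes with LPS, and those of 3, Apoe, Trem2 and Lpcat3, did without LPS. Among all genes tested, 7.78% were higher and 6.54% lower in KO cells with LPS, and 14.1% were higher and 9.69% lower without LPS. The fold criterion was also met by Apoe in both states, beside 1.25% and 1.82% of all genes. Libraries of KO and WT did not overlap for 7 of the 9 genes with LPS and for 5 of the 9 without, beside 29.1% and 40.8% of all genes tested. Nothing is read from these counts, since the comparison helped to choose the genes. Apart from Apoe, and Trem2 without LPS, the log2 differences between KO and WT lay between -0.14 and 0.20. The median over the 9 genes was 0.10 with LPS and 0.05 without, against -0.01 and 0.0014 over all genes tested.

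The gene whose levels were most like those of Apoe was C1qa, of the complement system. Among 9076 other protein-coding genes with a mean of at least 5 CPM, the 5 highest correlations with Apoe of log2 CPM over the 12 libraries were those of C1qa (r = 0.989), Folr2 (0.980), Pcna (0.980), Slc25a4 (0.952) and C1qc (0.942). After removal of the mean of each treatment they were C1qa (0.997), Tmem176b (0.995), C1qc (0.994), P2rx4 (0.989) and Fcgr3 (0.988). The points share libraries and scaling, and 2 genotypes and 2 treatments make up nearly all of the variation, so these values are descriptions. C1qa and C1qc encode chains of C1q, the recognition part of the classical complement pathway, and both are in both lists. C1qa was at 202 to 212 CPM in WT UT and 535 to 580 CPM in KO UT libraries. In the LPS libraries C1qa was at 140 to 176 CPM in WT and 322 to 372 CPM in KO libraries. As for Apoe, the KO libraries of C1qa lay above all WT libraries. C1qb, the gene of the third chain, lies beside C1qc on chromosome 4 and was looked up after their values had been seen. It was at 382 to 390 against 570 to 620 CPM without LPS and at 231 to 262 against 415 to 439 CPM with LPS. Without LPS, the log2 differences of C1qa, C1qc and C1qb were 1.43, 1.00 and 0.64. With the small RNA share as a covariate they were 1.01, 0.57 and 0.34. With LPS they were 1.13, 0.75 and 0.81, and 1.33, 0.96 and 0.96 with the covariate. For Folr2 the covariate took the difference from 0.83 to 0.51 without LPS and from 0.52 to 0.67 with LPS. Folr2 encodes a folate receptor of macrophages, Fcgr3 a low-affinity receptor for IgG and P2rx4 an ATP-gated channel. Of the other genes in the set of 10, Abca1 (0.799), Trem2 (0.795) and Lpcat3 (0.784) correlated most with Apoe once treatment means were removed, and Abcg1 (-0.578) least.

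Apoc2, which encodes the cofactor of lipoprotein lipase, lies in the same cluster on chromosome 7 (chr7:19671579-19677941, minus strand) and was hardly counted. Its counts were 2, 4 and 0 in WT UT and 1, 0 and 0 in WT LPS. All 6 KO libraries were at 0, where 3 counts, the limit that a count of 0 allows, are 0.0758 to 0.115 CPM. No fold was formed. Its exons overlap those of Gm44805, a longer gene model of the same strand that had 0 counts in all libraries.

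Of the neighbours of Apoe on chromosome 7, 1 passed between the genotypes with LPS, higher in KO cells. Among all genes tested, 7.78% were higher and 6.54% lower in KO cells with LPS. Of 8 genes listed from the cluster, 6 were tested, with a median log2 difference of 0.13 with LPS and 0.02 without. Clptm1 was significantly higher in KO than in WT cells with LPS, by a log2 fold change of 0.27 (SE 0.06, adjusted p = 0.0053), and was at 0.01 (adjusted p = 0.963) without LPS. Nectin2, which encodes a cell adhesion molecule, was at 0.21 (adjusted p = 0.102) with LPS and 0.26 (adjusted p = 0.0526) without. Bcam, the gene of a laminin receptor, is named outside the rule, after its values were seen. With LPS it was at 0.708, 0.718 and 0.566 CPM in WT and 1.26, 1.31 and 1.54 CPM in KO libraries, without overlap, a log2 difference of 1.04 (SE 0.37, adjusted p = 0.0616) that did not pass. With LPS, 2 of the 6 passed in DESeq2, Clptm1 and Bcam, where 1 passed in edgeR.

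The receptors themselves were modestly expressed. Nr1h2 encodes LXRβ (chr7:44549616-44553951, minus strand) and Nr1h3 encodes LXRα (chr2:91184061-91202834, minus strand). Nr1h3 was at 31.8, 29.8 and 30.1 CPM in WT UT and 30.7, 28.6 and 28.7 CPM in KO UT libraries. After LPS the values were 67.9, 72.9 and 70.1 CPM in WT and 77.9, 81.8 and 75.4 CPM in KO libraries. All LPS libraries lay above all UT libraries. The LPS response was a log2 fold change of 1.20 in WT (SE 0.06, adjusted p = 4.75e-14) and 1.42 in KO cells (SE 0.06, adjusted p = 2.78e-15). The log2 difference between KO and WT was 0.16 with LPS (95% interval 0.04 to 0.28) and -0.06 without (95% interval -0.18 to 0.06). Exons of Nr1h3 overlap those of Gm13783, a non-coding gene of the same strand with 3 to 20 counts per library.

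Nr1h2 moved little. Its level was 43.7, 41.1 and 40.0 CPM in WT UT and 44.1, 39.3 and 41.0 CPM in KO UT libraries, and 54.4, 48.9 and 50.8 CPM in WT LPS and 47.4, 48.2 and 44.1 CPM in KO LPS libraries. It rose with LPS by a log2 fold change of 0.31 in WT (SE 0.06, adjusted p = 0.000231) and 0.17 in KO cells (SE 0.06, adjusted p = 0.0254). Under upper-quartile scaling neither passed, at 0.12 and -0.02, and the KO response also failed to pass without KO LPS replicate 1 or 2, without KO UT replicate 2 or 3, without the filter on low counts, and with the small RNA covariate. Per kilobase of exon, the ratio of Nr1h3 to Nr1h2 was 0.979 in WT UT and 0.943 in KO UT cells, and 1.82 in WT LPS and 2.24 in KO LPS cells, so the α form was level with the β form without LPS and above it with LPS.

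Partners of LXR were mostly lower after LPS. Of 14 listed partners, corepressors and coactivators, 13 were tested. With LPS, 8 fell and 1 rose in WT cells, and 8 fell and 1 rose in KO cells, with median log2 fold changes of -0.49 and -0.41. Among all genes tested, 35.3% fell and 38.0% rose in WT cells and 37.7% fell and 35.1% rose in KO cells. Rxra, the main retinoid X receptor of macrophages, was at 42.2, 41.5 and 43.0 CPM in WT UT and 8.12, 6.96 and 5.56 CPM in WT LPS libraries. In KO cells it was at 43.2, 38.3 and 38.0 CPM without and 10.4, 10.9 and 10.4 CPM with LPS. It fell by 2.60 (SE 0.10, adjusted p = 3.03e-16) on the log2 scale in WT cells and by 1.91 (SE 0.09, adjusted p = 2.44e-14) in KO cells. With LPS it was higher in KO than in WT cells by 0.61 (SE 0.11, adjusted p = 0.000685), with no overlap of libraries. Between genotypes, 2 of the 13 were higher in KO cells with LPS and 3 were lower without LPS, the latter being 5 without WT LPS replicate 3, 8 with DESeq2 and 1 with the small RNA covariate, beside 7.78% higher and 9.69% lower among all genes tested. The 3 were Tbl1xr1, Ncoa1 and Ncoa3, and with the covariate none of them passed, Ncoa1 and Ncoa3 each being at -0.10 (adjusted p = 0.745 and 0.744). Tbl1xr1, a subunit of the corepressor complex, was also higher in KO cells with LPS, by 0.34 (SE 0.08, adjusted p = 0.00582), and lower without, by -0.33 (SE 0.07, adjusted p = 0.00168). With the small RNA covariate the first became 0.07 (adjusted p = 0.643) and the second 0.24 (adjusted p = 0.319).

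Abca1 and Abcg1, the transporters of cholesterol efflux, responded to LPS in opposite directions. Abca1 (chr4:53030787-53159895, minus strand) was at 270, 286 and 280 CPM in WT UT and 297, 304 and 303 CPM in KO UT libraries. With LPS it reached 868, 827 and 819 CPM in WT and 888, 881 and 932 CPM in KO libraries. It rose by a log2 fold change of 1.59 in WT (SE 0.05, adjusted p = 1.58e-17) and 1.58 in KO cells (SE 0.05, adjusted p = 1.68e-17), a ratio of 3.01 and 2.99. The difference between both responses was -0.01, with a 95% interval of -0.15 to 0.14. Abcg1 (chr17:31057675-31117988, plus strand) was at 255, 247 and 247 CPM in WT UT and 235, 225 and 226 CPM in KO UT libraries. After LPS Abcg1 was at 47.2, 45.0 and 48.0 CPM in WT and 46.2, 47.2 and 48.4 CPM in KO libraries. It fell by 2.42 (SE 0.06, adjusted p = 5.79e-20) on the log2 scale in WT cells and by 2.27 (SE 0.05, adjusted p = 1.37e-19) in KO cells.

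Per kilobase of exon, the level of Abcg1 was 1.27 times that of Abca1 in WT UT cells and 1.08 times in KO UT cells. With LPS the level of Abca1 was 12.6 times that of Abcg1 in WT and 13.4 times in KO cells. Between genotypes, the log2 difference of Abca1 was 0.11 without LPS (95% interval 0.01 to 0.21) and 0.10 with LPS (95% interval 0.002 to 0.21). For Abcg1 it was -0.13 (95% interval -0.23 to -0.02) and 0.02 (95% interval -0.10 to 0.13). The intervals of both transporters thus lay between -0.23 and 0.21 in the libraries where those of Apoe began at 1.08.

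Other LXR targets in the set act on fatty acids, the LDL receptor and membrane phospholipids. Srebf1 encodes SREBP-1, the master regulator of fatty acid synthesis (chr11:60199089-60222581, minus strand). It was at 50.8, 49.1 and 51.0 CPM in WT UT, 53.1, 49.5 and 48.6 CPM in KO UT, 53.7, 55.8 and 55.1 CPM in WT LPS and 49.6, 51.1 and 48.5 CPM in KO LPS libraries. All groups but WT LPS overlapped. The LPS response was 0.13 in WT (SE 0.06, adjusted p = 0.0473) and -0.02 in KO cells (SE 0.06, adjusted p = 0.765). The WT value passed narrowly, was lost in 17 of 21 alternatives, among them the replicate block (0.13, adjusted p = 0.0678), and turned to -0.06 with upper-quartile scaling. Exons of Srebf1 overlap those of Rai1 on the other strand, and whether counting used strand is not given. The table gives 1 value per gene, so the start with the element and the others cannot be told apart.

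Mylip encodes IDOL, the ubiquitin ligase that marks the LDL receptor for degradation (chr13:45389742-45412022, plus strand). It was at 71.9, 67.9 and 75.2 CPM in WT UT and 77.5, 75.5 and 69.6 CPM in KO UT libraries, and at 18.7, 19.9 and 19.2 CPM in WT LPS and 22.8, 20.1 and 23.5 CPM in KO LPS libraries. It fell by 1.90 (SE 0.07, adjusted p = 3.70e-16) on the log2 scale in WT cells and by 1.74 (SE 0.07, adjusted p = 1.15e-15) in KO cells. With LPS the KO libraries lay just above the WT libraries, with a log2 difference of 0.20 (95% interval 0.04 to 0.36).

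Lpcat3 encodes the enzyme that puts polyunsaturated chains into phospholipids (chr6:124663027-124704418, plus strand). It was at 32.0, 29.0 and 30.3 CPM in WT UT, 33.2, 33.9 and 36.9 CPM in KO UT, 35.7, 33.7 and 36.2 CPM in WT LPS and 37.8, 37.5 and 39.8 CPM in KO LPS libraries. The KO libraries were higher than the WT libraries of the same treatment, with log2 differences of 0.19 without LPS (95% interval 0.06 to 0.32) and 0.12 with LPS (95% interval -0.01 to 0.26). LPS raised it in WT cells by 0.21 (SE 0.07, adjusted p = 0.00689), which no longer passed at 0.03 with upper-quartile scaling (adjusted p = 0.721), nor without the filter on low counts or in the fit of the compared groups only. In KO cells the value was 0.15 (SE 0.06, adjusted p = 0.0501), which passed in 7 of 21 alternatives, among them DESeq2 at 0.18 (adjusted p = 0.0175), and turned to -0.04 with upper-quartile scaling. Its exons overlap those of Emg1 on the other strand, which was at 34.9 to 55.1 CPM, so reads of the pair may not be separated.

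**Figure D2:**
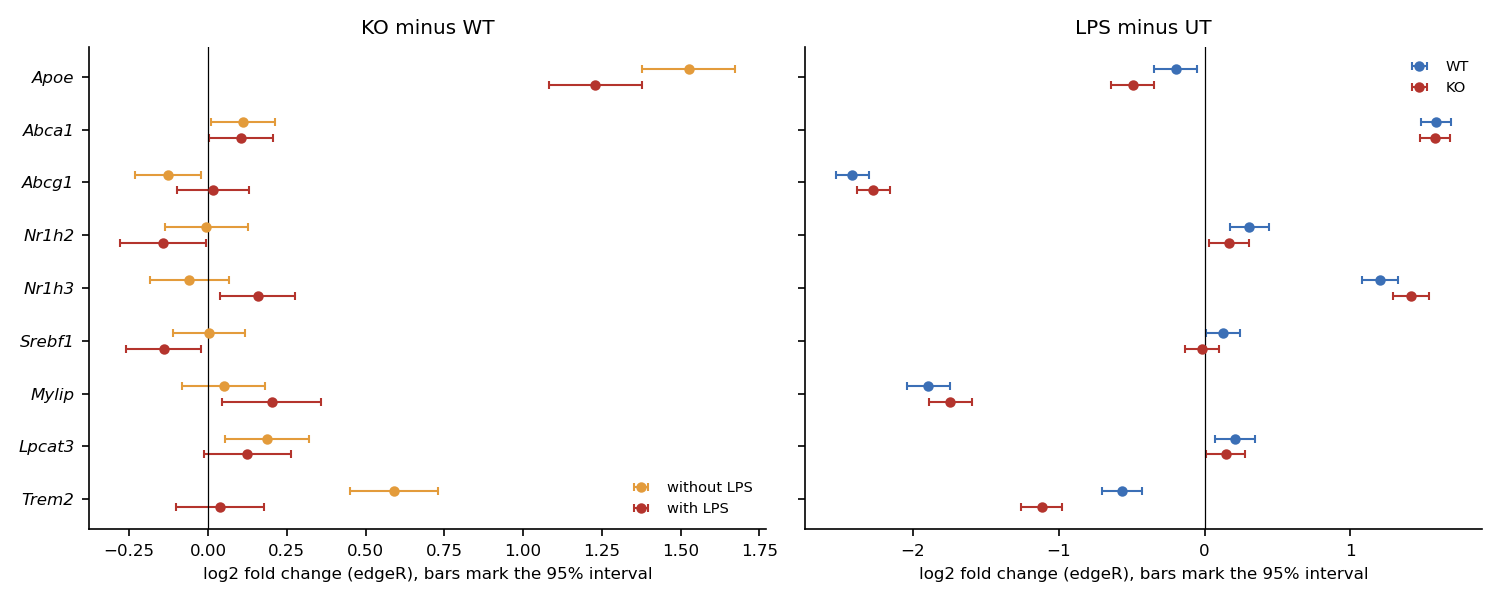
Log2 fold changes of the 9 genes that passed the filter, KO minus WT on the left and LPS minus UT on the right, with points for the estimate and bars for its 95% interval (edgeR). On the left Apoe stands at 1.53 and 1.23 and Trem2 at 0.59 without LPS, while the others lie between -0.14 and 0.20, and on the right Abca1 and Nr1h3 lie above 1 and Abcg1 and Mylip below -1 in both genotypes.

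In WT cells all 9 genes tested passed for LPS, 5 up and 4 down, where 38.0% of all genes tested rose and 35.3% fell. The count of 9 was 8 whichever of the 12 libraries was left out and 6 with upper-quartile scaling, and that of 7 in KO cells below ranged from 6 to 8 and was 5 with the small RNA covariate. Of the 9, 4 were calls (Abca1, Nr1h3, Abcg1 and Mylip), beside 37.8% of all genes. In KO cells 7 changed, 3 up and 4 down, where 35.1% rose and 37.7% fell, and 5 were calls, the same 4 and Trem2, beside 37.0%. With the small RNA covariate the Trem2 response in KO cells was -0.73 (adjusted p = 5.19e-07), short of the fold criterion for a call. Most genes tested responded to LPS, so these counts are no result about the 9 genes. The median log2 fold change of the 9 was 0.13 in WT and -0.02 in KO cells, against 0.05 and -0.06 over all genes tested.

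The genes that hold the same element did not move together. Abca1 rose 3.01-fold with LPS in WT cells, Srebf1 had a ratio of 1.09, and Fasn was at 36.6 to 41.7 CPM without and 10.5 to 14.4 CPM with LPS in WT libraries. Fasn fell by 1.59 (SE 0.09, adjusted p = 1.03e-12) on the log2 scale in WT cells and by 1.51 (SE 0.09, adjusted p = 2.96e-12) in KO cells. It is named here for its sequence, outside the rule for named genes.

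Other LXR targets mostly fell with LPS and several were higher in KO cells. Of 19 further targets listed, 15 were tested, and with LPS 12 fell and 2 rose in each genotype, with a median log2 fold change of -1.40 in WT and -1.26 in KO cells. Among all genes tested, 35.3% fell and 38.0% rose in WT cells, and 37.7% fell and 35.1% rose in KO cells. Arl4c, a small GTPase gene, went from 275 to 281 CPM in WT UT libraries to 18.7 to 21.5 CPM in WT LPS libraries, a log2 fold change of -3.77 (SE 0.06, adjusted p = 4.36e-22). Fads1, a fatty acid desaturase gene, went from 78.7 to 81.7 CPM to 6.36 to 8.57 CPM, a log2 fold change of -3.38 (SE 0.08, adjusted p = 2.8e-19). Mertk, the gene of a receptor for dying cells, fell by 2.35 (SE 0.07, adjusted p = 1.59e-18) in WT and by 2.47 (SE 0.06, adjusted p = 4.54e-19) in KO cells.

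Between genotypes, 8 of the 15 passed with LPS, each higher in KO cells, with a median of 0.27, beside 7.78% higher among all genes tested. They were Pltp, Lpl, Scd1, Scd2, Elovl5, Fads1, Fads2 and Cd5l, of which Scd1, Scd2, Fads1 and Fads2 are desaturases. Scd1 and Fads2, with a mean under 5 CPM, are named outside the rule, after their values were seen. Scd2, a stearoyl-CoA desaturase, was at 3.88, 3.68 and 3.87 CPM in WT LPS and 5.48, 6.12 and 5.23 CPM in KO LPS libraries, a log2 difference of 0.56 (SE 0.11, adjusted p = 0.00166). Cd5l, a secreted protein of macrophages, was at 32.4 to 33.5 against 41.4 to 47.6 CPM, a log2 difference of 0.41 (SE 0.06, adjusted p = 0.000113). Elovl5, a fatty acid elongase, differed by 0.43 (SE 0.08, adjusted p = 0.00103) and no longer passed with the small RNA covariate. The count of 8 was 5 without WT LPS replicate 3 and 3 with the small RNA share as a covariate. This count is a description, since the list was made with results of these data known. Without LPS, 5 were higher and 2 lower, with a median of 0.09, beside 14.1% and 9.69% of all genes tested, where DESeq2 gave 4 and 4. Cd5l was again higher, by 0.56 (SE 0.06, adjusted p = 2.61e-07), and Smpdl3a, a phosphodiesterase gene, was lower, by -0.19 (SE 0.05, adjusted p = 0.01).

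**Figure D3:**
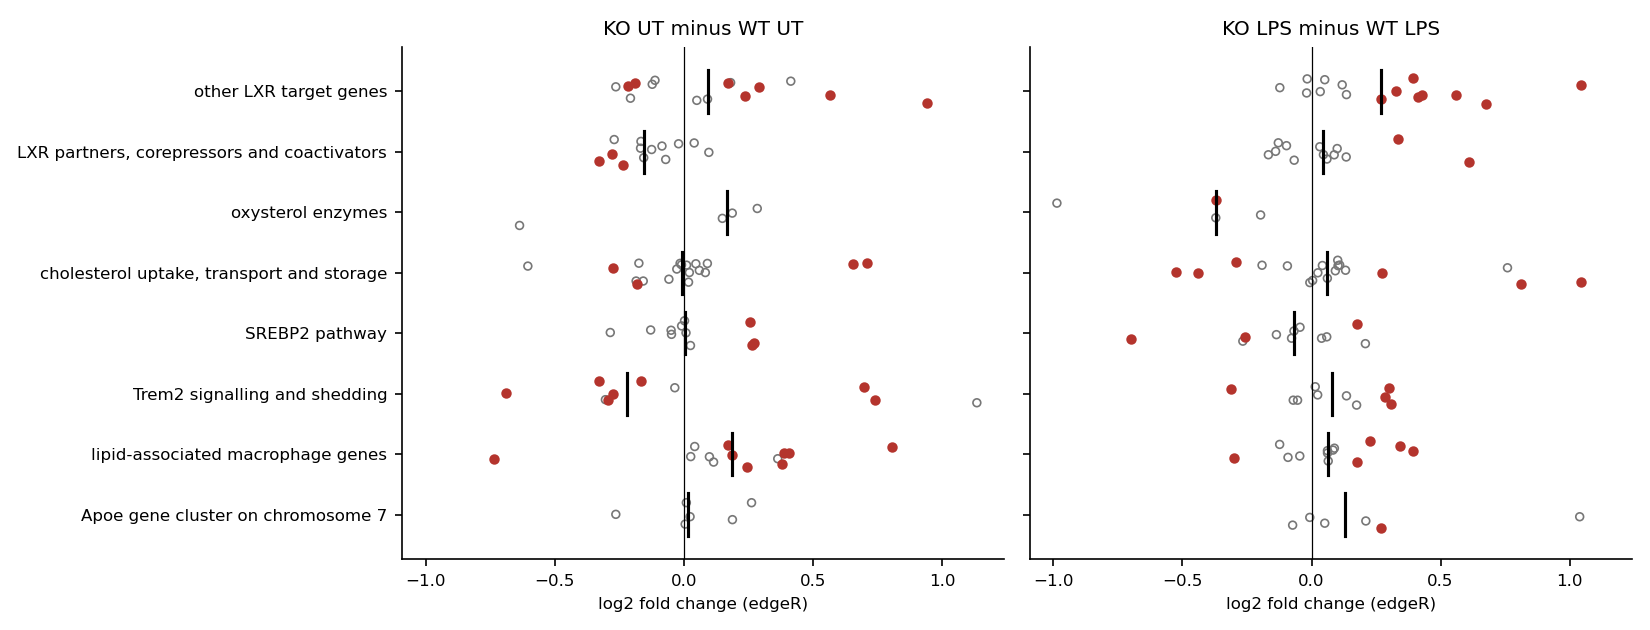
Log2 differences between KO and WT, without LPS on the left and with LPS on the right, of the genes in 8 lists around the pathway. Each point is a gene tested that is not one of the 10, filled where the adjusted p was below 0.05, and the vertical bar is the list median. The other LXR targets have 8 filled points to the right with LPS, and the partners of LXR have 3 filled points to the left without LPS.

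Enzymes that make the ligands of LXR included Ch25h, whose LPS response was the largest among the genes named here. Of 7 listed, 4 were tested. Ch25h, which makes 25-hydroxycholesterol, was at 0.106 to 0.491 CPM in WT UT libraries and 203, 227 and 209 CPM in WT LPS libraries. In KO libraries it was at 0.294 to 0.531 CPM without and 153, 177 and 164 CPM with LPS. With LPS it was lower in KO cells, with a log2 difference of -0.37 (SE 0.09, adjusted p = 0.00725) and no overlap of libraries. Cyp27a1, which makes 27-hydroxycholesterol, fell by 3.09 (SE 0.08, adjusted p = 2.48e-19) on the log2 scale in WT and by 3.43 (SE 0.08, adjusted p = 3.91e-20) in KO cells.

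Genes of uptake, transport and storage of cholesterol were mixed. Of 19 tested, 3 were higher and 3 lower in KO cells with LPS, and 2 were higher and 2 lower without, where DESeq2 gave 2 and 6. Among all genes tested, 7.78% were higher and 6.54% lower with LPS, and 14.1% and 9.69% without. Cd36, the scavenger receptor for oxidised lipoproteins, was higher in KO cells in both states, at 407, 438 and 467 against 264, 288 and 280 CPM without LPS and 405, 395 and 406 against 247, 230 and 210 CPM with LPS. Its log2 differences were 0.66 (SE 0.06, adjusted p = 2.25e-07) and 0.81 (SE 0.06, adjusted p = 3.12e-08). With the small RNA covariate they were 1.07 and 0.61, so the larger was then that without LPS. Abca9, a transporter gene of the same family as Abca1, was also higher in both, by 0.71 (SE 0.07, adjusted p = 4.06e-07) and 1.04 (SE 0.10, adjusted p = 6.45e-07). Abca7 was lower in KO cells with LPS, by -0.52 (SE 0.06, adjusted p = 8.71e-06), and so was Gramd1a, a carrier of cholesterol to the endoplasmic reticulum, by -0.44 (SE 0.06, adjusted p = 9.03e-05). Msr1, the class A scavenger receptor, was higher with LPS, by 0.27 (SE 0.05, adjusted p = 0.00143), and lower without, by -0.27 (SE 0.05, adjusted p = 0.000629), the latter being 0.03 (adjusted p = 0.892) with the small RNA covariate.

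Genes of cholesterol synthesis under SREBP2 differed by little. Of 12 listed, 11 were tested. Without LPS, Insig1, Cyp51 and Sqle were higher in KO cells, by 0.25 to 0.27 on the log2 scale, and no other gene of the list passed, beside 14.1% higher and 9.69% lower among all genes tested. With the small RNA covariate the differences were 0.53 for Insig1 (adjusted p = 0.00747), 0.65 for Cyp51 (adjusted p = 0.00185) and 0.13 for Sqle (adjusted p = 0.761). With LPS, Scap was higher and Hmgcs1 and Fdps lower, beside 7.78% and 6.54% of all genes, where Fdps, with a mean under 5 CPM, is named outside the rule. The Scap difference of 0.18 (adjusted p = 0.0443) was lost with the replicate block (0.18, adjusted p = 0.0683), with which 1 of these 3 genes passed, namely Hmgcs1. It was also lost with the small RNA covariate (0.14, adjusted p = 0.342), with TMM on protein-coding genes, with upper-quartile scaling, without the filter on low counts and in the fit of the compared groups only. The median log2 difference was 0.0030 without LPS and -0.07 with LPS. In WT cells 6 genes rose with LPS and 1 fell, beside 38.0% and 35.3% of all genes, with Cyp51 rising from 30.7 to 31.9 CPM to 58.2 to 68.2 CPM, a log2 fold change of 1.02 (SE 0.07, adjusted p = 8.07e-12).

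Trem2 (chr17:48346401-48354147, plus strand) stood apart between the genotypes without LPS and overlapped with LPS. It was at 876, 845 and 873 CPM in WT UT and 1331, 1300 and 1271 CPM in KO UT libraries, a log2 difference of 0.59 (SE 0.07, 95% interval 0.45 to 0.73). After LPS Trem2 was at 516, 602 and 634 CPM in WT and 615, 640 and 545 CPM in KO libraries. These overlapped, and the log2 difference was 0.04 (95% interval -0.10 to 0.18). Trem2 fell with LPS by 0.57 (SE 0.07, adjusted p = 1.37e-07) on the log2 scale in WT cells and by 1.12 (SE 0.07, adjusted p = 2.04e-12) in KO cells. The KO response was lower by 0.55 (95% interval -0.75 to -0.35). This value, like that of Apoe, is formed in part from the difference between KO and WT and is a description. Among all genes tested, 9.5% had a lower and 7.32% a higher response in KO cells, and 2.16% were calls.

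The Trem2 values moved with the share of small structured RNAs. Within WT LPS, where that share varied most, the libraries with 4.07, 5.40 and 6.93% had 516, 602 and 634 CPM of Trem2. With the share as a covariate, the log2 difference without LPS was 0.18, and that with LPS was 0.24. The difference in response became 0.07. The Trem2 difference was thus smaller than its unadjusted value without LPS and larger with LPS, whereas that of Apoe stayed above 1 in both. The share is tied to the groups, and its part in the Trem2 values cannot be told apart from that of genotype and LPS.

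**Figure D4:**
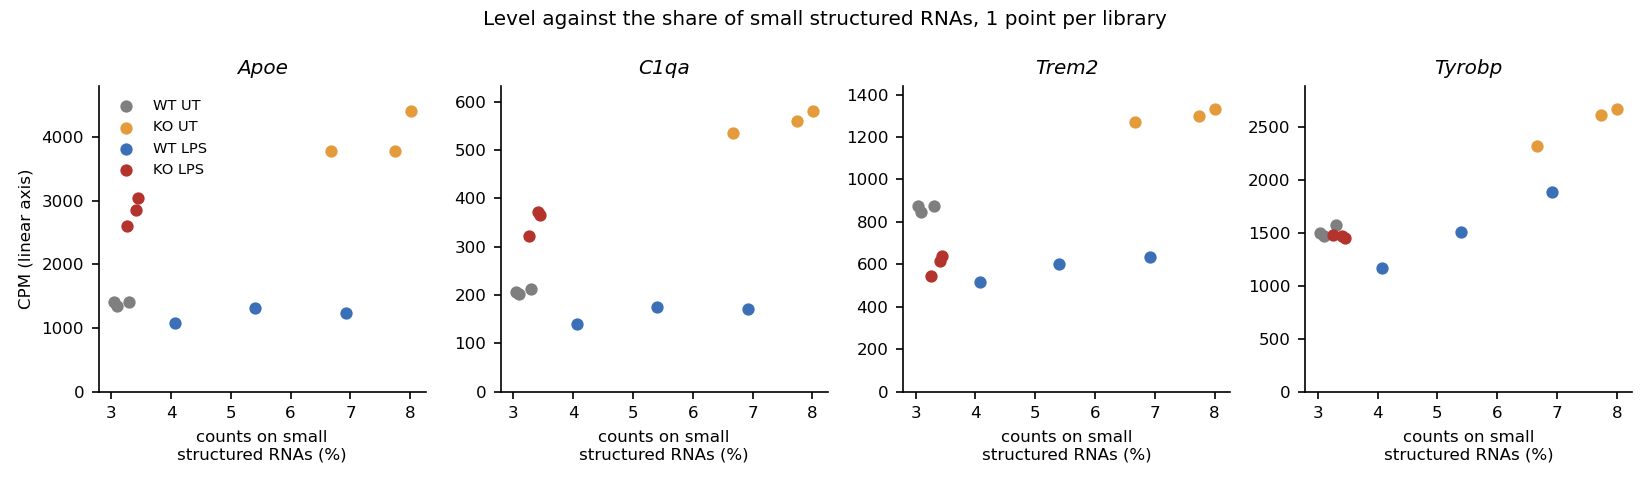
CPM of Apoe, C1qa, Trem2 and Tyrobp on linear axes against the percentage of counts on small structured RNAs, with 1 point for each of the 12 libraries in the colour of its group. KO UT libraries hold 6.67 to 8.01% and the highest level of all 4 genes, while KO LPS libraries, at 3.26 to 3.45%, lie above the WT LPS libraries for Apoe and C1qa and overlap with them for Trem2 and Tyrobp.

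For Tyrobp, which encodes the adaptor of TREM2, the difference without LPS changed more with the covariate than that of Trem2. It was at 1576, 1475 and 1502 CPM in WT UT and 2676, 2616 and 2318 CPM in KO UT libraries, a log2 difference of 0.74 (SE 0.10, adjusted p = 1.51e-05). In WT LPS libraries Tyrobp was at 1172, 1505 and 1890 CPM, in the order of their small RNA share. In KO LPS libraries it was at 1468, 1452 and 1479 CPM, where the share was 3.41, 3.45 and 3.26%, the reverse order. With the covariate the difference without LPS was -0.23 (adjusted p = 0.122), so the direction turned. Hcst, the gene of a related adaptor, was higher in KO UT cells by 0.70 (SE 0.14, adjusted p = 0.000585) and at -0.02 (adjusted p = 0.987) with the covariate.

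Genes of Trem2 signalling and shedding differed in both directions. Of the 10 tested, 2, the adaptors, were higher and 5 lower in KO cells without LPS, and 3 were higher and 1 lower with LPS. Among all genes tested, 14.1% were higher and 9.69% lower without LPS, and 7.78% and 6.54% with LPS. Syk, the kinase downstream of TYROBP, was lower without LPS by -0.29 (SE 0.06, adjusted p = 0.000538). Adam10, a protease that sheds TREM2, was lower without LPS by -0.33 (SE 0.08, adjusted p = 0.00674) and higher with LPS by 0.31 (SE 0.09, adjusted p = 0.0217), the latter being -0.0010 with the covariate. Inpp5d, the phosphatase SHIP1, was higher with LPS by 0.30 (SE 0.05, adjusted p = 0.000573). Trem1, an activating receptor of the same family, rose with LPS by 4.47 (SE 0.10, adjusted p = 5.93e-20) in WT cells and was lower in KO than in WT cells with LPS by -0.31 (SE 0.08, adjusted p = 0.011). With the covariate, 1 of the 10 passed without LPS, and it was lower in KO cells.

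Genes known to accompany Trem2 in lipid-associated macrophages included Fabp5, Lgals3, Cd9 and Axl. All 13 were tested, and without LPS 7 were higher and 1 lower in KO cells, with a median of 0.19, beside 14.1% and 9.69% of all genes tested. Fabp5, a fatty acid binding protein, was at 423, 408 and 432 CPM in WT UT and 748, 731 and 729 CPM in KO UT libraries, a log2 difference of 0.81 (SE 0.07, adjusted p = 3.83e-08). Lgals3 (galectin 3) and Cd9 (a tetraspanin) were higher by 0.39 (SE 0.05, adjusted p = 6.45e-06) and 0.41 (SE 0.07, adjusted p = 0.000143). Axl, a receptor for dying cells, was lower by -0.74 (SE 0.07, adjusted p = 7.38e-08). With the small RNA covariate 3 were higher and 1 lower, Fabp5 was at 0.34 (adjusted p = 0.0619), Cd9 at 0.33 (adjusted p = 0.214) and Axl at -0.49 (adjusted p = 0.0205). With LPS, 4 were higher and 1 lower, with a median of 0.06, beside 7.78% and 6.54% of all genes. Lpl, which encodes lipoprotein lipase, was higher in KO cells with LPS, at 2011, 1981 and 2012 against 1696, 1466 and 1414 CPM, a log2 difference of 0.39 (SE 0.05, adjusted p = 5.69e-05). With the covariate the Lpl difference was 0.23 (adjusted p = 0.00175).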

How the data were processed

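From total RNA, the authors made paired-end libraries with a stranded kit that depletes globin, aligned reads to GRCm38 with HISAT2 2.1.0 and counted them per gene with featureCounts 2.0.0. The deposited table holds raw counts, and its annotation release, strand setting and treatment of multi-mapping reads are not stated. Identifiers were matched without version to GENCODE vM21 (48144 of 48526).

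A model of 4 group means was fitted to the counts in edgeR 4.0.16 (quasi-likelihood F-test; limma 3.58.1, R 4.3.3), with TMM scaling and filterByExpr (minimum count 10, minimum total 15). This kept 15523 genes with 99.96% of counts. The Benjamini-Hochberg method adjusted p over all of them. The script was tested on simulated data. Floors of 3 counts cover counting error only.

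Members and lists were chosen with earlier results of these data known. Named were the 10 genes, Tnf, up to 3 genes per list and contrast of largest absolute log2 fold change with an adjusted p below 0.05 and a mean of at least 5 CPM, and the 5 genes most like Apoe on each scale. The batch number used equals the replicate number. Over 18 same-numbered pairs, deviations from group means had r of -0.0631 to 0.0373. Alternatives were DESeq2 1.42.0, RLE, upper-quartile and protein-coding TMM scaling, 2 other filters, a replicate block, the small RNA share as covariate, the compared groups only, and each library left out. List counts without WT LPS replicate 3, with the block, the covariate and DESeq2 were added after seeing the data.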

Additional observations from a re-analysis of the deposited data

Results flagged for a closer look

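The rule for named genes, with at most 3 genes a list, names 20 genes whose response to LPS lay past an adjusted p of 0.05 in the interaction term of edgeR (log2 response in KO minus that in WT). Further genes of the same lists also passed, as did 16.8% of all genes tested, with 7.32% higher and 9.5% lower. Apoe (-0.30) and Trem2 (-0.55) are given as a description. Among other LXR targets and partners the values were 0.38 for Pltp, 0.34 for Elovl5, 0.22 for Smpdl3a, 0.69 for Rxra, 0.67 for Tbl1xr1 and 0.28 for Ncoa3. Among genes of cholesterol handling they were -0.35 for Cyp27a1, 0.55 for Msr1, -0.43 for Gramd1a, -0.35 for Abca7 and -0.32 for Insig1. Around Trem2 they were 0.83 for Treml2, -0.80 for Tyrobp, 0.63 for Adam10, -0.85 for Fabp5, -0.51 for Lgals3 and 0.44 for Axl, and in the Apoe cluster 0.26 for Clptm1. With the small RNA share as a covariate, 18 of the 20 no longer passed, among them Rxra at 0.24 (adjusted p = 0.835), Fabp5 at -0.16 (adjusted p = 0.752), Msr1 at 0.09 (adjusted p = 0.818), Axl at 0.08 (adjusted p = 0.919) and Gramd1a at -0.05 (adjusted p = 0.9504). The 2 that passed were Insig1, at -0.69 (adjusted p = 0.0444), and Tyrobp, which turned to 0.67 (adjusted p = 0.00588). With the replicate block, 5 no longer passed, namely Apoe, and Elovl5, Smpdl3a, Cyp27a1 and Clptm1 (adjusted p = 0.0542, 0.0795, 0.0561 and 0.0711). DESeq2 lost Apoe and Cyp27a1 (adjusted p = 0.117 for Cyp27a1), as did RLE scaling (0.102), and the fit without a filter on low counts lost Cyp27a1 (0.118). TMM on protein-coding genes lost Elovl5, Smpdl3a and Clptm1 (0.0531, 0.0821 and 0.0735), and upper-quartile scaling lost Apoe.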

How the results depend on the processing

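Of 3418 values computed under alternatives, 3164 were counted as kept and 22 turned. For genes tested, kept means the same direction and side of the threshold. For the 9 genes between KO and WT it means a move below the replicate spread, on either side of the threshold. Counts within a set ratio and correlations within a set margin were also counted as kept. A count of 9 that became 6 is thus among them. The differences of Apoe between KO and WT kept their sign in every alternative run, between 1.16 and 1.40 with LPS and between 1.18 and 1.56 without. Between KO and WT with LPS, 1 of the 9 genes lay past the threshold, and 2 did with DESeq2, with TMM on protein-coding genes and with the small RNA covariate (1 to 2 with each library left out, 2 without KO LPS replicate 2). Without LPS 3 did, Apoe, Trem2 and Lpcat3, where with DESeq2, RLE and upper-quartile scaling Abcg1 stood in place of Lpcat3, against 2 without the filter on low counts, 1 with the covariate and 5 in the fit of the compared groups only (2 to 4 with each library left out). For the difference in LPS response 2 lay past the threshold, against 1 with upper-quartile scaling, 1 with the replicate block and 0 with the covariate, while DESeq2 and RLE passed Trem2, Nr1h3 and Abcg1 and not Apoe (1 to 2 with each library left out). For LPS the count of 9 in WT cells was 8 with each library left out and 6 with upper-quartile scaling, and that of 7 in KO cells was 6 to 8 with each library left out and 5 with the covariate.

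With the small RNA covariate, 18 of 20 differences in LPS response no longer passed, and the difference turned to 0.22 for Apoe, 0.066 for Trem2, -0.21 for Elovl5, -0.13 for Smpdl3a, -0.16 for Tbl1xr1, 0.20 for Abca7, -0.33 for Adam10 and 0.67 for Tyrobp. The KO minus WT difference turned to 0.24 for Tbl1xr1, 0.033 for Msr1, -0.23 for Tyrobp and -0.022 for Hcst without LPS, and to -0.0010 for Adam10 with LPS. Of the 18 genes of the lists that the rule names for a difference between KO and WT without LPS, 11 no longer passed with the covariate, and of the 18 with LPS, 4 did not. The cause was not tested. Upper-quartile scaling moved the median of all genes by -0.18 in both LPS contrasts, and there the response turned to -0.017 for Nr1h2 and -0.040 for Lpcat3 in KO cells and to -0.057 for Srebf1 and -0.032 for Clptm1 in WT cells. The Srebf1 response in KO cells, -0.019, was 0.016 with DESeq2 and RLE, 0.014 with protein-coding TMM, 0.091 with the covariate and -0.20 with upper-quartile scaling (adjusted p = 0.00257), where alone it passed, and ranged from -0.048 to 0.022 with each library left out.

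Same-numbered libraries did not deviate together, so the replicate block is an alternative only. Beside the count of 1 above, it lost the Srebf1 response in WT cells (0.13, adjusted p = 0.0678) and the differences of Scap, Fdps and Fads2 between KO and WT with LPS. It also lost the differences in response of Apoe, Elovl5, Smpdl3a, Cyp27a1 and Clptm1. Of the lipid-associated genes, 6 in place of 7 were higher in KO cells without LPS, and 3 in place of 4 with LPS. Of the genes of uptake, transport and storage, 1 in place of 2 was lower in KO cells without LPS.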
